A study of Mus musculus with 2 samples.

Results

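The Gzmk-positive non-cycling CD8 T cells described here were 74 of 2339 barcodes from B16Ova mouse melanomas, 37 of 1120 in the WT library and 37 of 1219 in the KO library. They were chosen by their own RNA counts, given as unique molecular identifiers (UMIs), of which each stands for 1 captured RNA molecule. A barcode was kept with at least 500 UMIs, at least 300 detected genes and at most 10% mitochondrial UMIs. It was taken as a T cell with a UMI of Cd3d, Cd3e or Cd3g and with Cd74, H2-Aa, H2-Ab1 and H2-Eb1 together under 0.5% of its UMIs. It was taken as a CD8 T cell if it had no Cd4 UMI and at least 1 of Cd8a or Cd8b1, as Gzmk-positive with at least 1 Gzmk UMI, and as non-cycling with no UMI of Mki67 or Top2a.

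The study set out to compare intratumoral immune cells of mice that can or cannot delete Tcf7 in CD8 T cells. All animals were female and Tcf7 FL/FL, so both groups carried the floxed gene. The WT animals were E8i-cre- and the KO animals E8i-cre+, E8i-cre being a Cre transgene that is active in mature CD8 T cells. Flank tumors of B16Ova, a B16 melanoma line that carries ovalbumin, were taken on day 13 from 3 animals in each group. Sorting gave 4 categories of 2000 cells per tumor, CD8 T cells being 1 of them, which were mixed before 7000 cells were loaded. Each group is 1 library in which the 3 tumors are pooled, and the barcodes do not tie a cell to a tumor. There are therefore no replicates, no test of KO against WT was possible, and every interval below is a 95% interval that covers counting error only.

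Granzyme K is a tryptase-like serine protease of cytotoxic granules, and Gzmk marks CD8 T cells that have met antigen but often lack the strongest killing programme. Tcf7 encodes TCF1, a transcription factor of the TCF and LEF family that binds DNA and maintains naive, memory and stem-like T cells. CXCR6, the receptor of the membrane-bound chemokine CXCL16, holds effector T cells near dendritic cells and other CXCL16-bearing cells in tumors.

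Among non-cycling CD8 T cells, the Gzmk-positive share was 37 of 135 (27.4%, Clopper-Pearson interval 20.1 to 35.7) in WT and 37 of 119 (31.1%, 22.9 to 40.2) in KO. The share expected at an equal depth of 2000 UMIs per cell was 19.4% of 124 WT cells and 20.3% of 114 KO cells. Type 1 dendritic cells, which lack the gene, held a Gzmk UMI in 0 of 142 WT cells, which allows a share of up to 2.11%, and in 1 of 156 KO cells (0.641%), at median depths of 16071 and 16880.5 UMIs. Cycling CD8 T cells held one in 58.5% of 41 WT cells (24 cells) and 48.6% of 70 KO cells (34 cells), so the rule leaves out many Gzmk-bearing CD8 T cells that were in cycle.

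Members just inside the rule were numerous. A single Gzmk UMI was seen in 12 of 37 members in each library, and the highest count was 11 in WT and 13 in KO. Just outside it stood 8 WT and 10 KO cells with 1 UMI of Mki67 and Top2a together, 0 and 1 cells with 1 Cd4 UMI, and 2 and 1 cells with class II genes at 0.5% or more. The summed Gzmk level of the members, which the rule fixes in part, was 515 CPM in WT and 446 CPM in KO. CPM is the gene's UMIs per 1000000 UMIs summed over the members of a library.

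Markers that the rule did not use were as follows. All 6 genes of the T cell list were detected in both libraries, with Lck in 35 and 35 of 37 cells and Thy1 in 34 and 35. Of the natural killer cell list, Ncr1, Klrb1c, Klra8 and Klra4 were at 0 in both libraries, and its other members, Gzma, Eomes, Tyrobp and Fcer1g, brought the list to 442 CPM in 18 WT cells and 1302 CPM in 24 KO cells, Gzma having the most UMIs and 1 KO cell holding 160 of the 327 KO UMIs. The regulatory T cell list summed to 536 CPM in 19 WT cells and 605 CPM in 25 KO cells, with Capg its most abundant member and Foxp3 at 9 UMIs in 2 WT cells and 0 in KO. The CD4 T cell list summed to 23 and 25 UMIs, and the neutrophil and monocyte list to 1509 and 1445 CPM, with Ly6c2, which CD8 T cells also make, its most abundant member and S100a8, S100a9, Csf3r, Cxcr2 and Fn1 at 0 in both. The part of these cell types in the results was not tested. The gamma-delta and innate-like list summed to 0 UMIs in WT and 1 in KO, the B cell list to 2 and 2, the melanoma list to 1 and 1, and the erythroid list to 0 and 0. Of the list of antigen-presenting cell genes, Xcr1, Clec9a, Ccl22 and Fscn1 were at 0 in both, and 11 of 17 members were detected in WT and 9 of 17 in KO. That list summed to 806 CPM in WT and 502 CPM in KO, each over 28 of 37 cells, and 83 of its 155 WT UMIs lay in 1 cell, without which the WT sum was 391 CPM and so below the KO sum. This cell also held all 37 WT UMIs of Lyz2, the lysozyme of myeloid cells, beside 5 Cd3e and 3 Cd8a UMIs, and its part in the results was not tested beyond leaving it out.

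Depth was similar in both libraries, with 794 to 24734 UMIs per member in WT (median 4282) and 1694 to 17026 in KO (median 5090), and with medians of 1478 and 1799 detected genes. Ribosomal protein genes made up 28.9% and 29.1% of the members' UMIs. A single WT cell with 24734 UMIs gave 12.9% of all WT UMIs and held 240 of 261 Ccl3, 77 of 113 Ccl4, 33 of 34 Spp1 and 40 of 57 Prf1 UMIs. Without that cell and the Lyz2-bearing cell the KO to WT ratios of some genes named below moved by more than 1.5 times, and these are given beside them. The libraries shared 1 barcode string.

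Compared with the other non-cycling CD8 T cells, those without a Gzmk UMI (98 WT and 82 KO cells), the members had more Ccl5, Pdcd1, Fasl and Gzmb RNA and less Ccr7, Satb1, Il7r and Tcf7 RNA in both libraries. The cells were split by one of their own genes, so these are descriptions. A gene was counted where the CPM ratio was at least 1.5 in one direction in each library and both counting intervals excluded 1. Of 2422 genes with a mean of at least 50 CPM, 86 were higher in both libraries (3.55%) and 29 were lower in both (1.20%). Median depth was close in both classes, at 4360.5 WT and 4621 KO UMIs in the Gzmk-negative cells, while ribosomal protein genes made up 37.6% and 36.2% of their UMIs. The deepest KO Gzmk-negative cell had 44197 UMIs, 8.91% of the total of its class, and the CPM values of that class include it.

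Ccl5, an attractant of T cells and myeloid cells, stood at 16397 CPM in Gzmk-positive and 5157 CPM in Gzmk-negative WT cells, and at 10878 and 3755 CPM in KO. Nearly every member held it, with a Ccl5 UMI in 37 of 37 WT and 36 of 37 KO cells. Pdcd1, the gene of the checkpoint receptor PD-1, stood at 484 against 214 CPM in WT and 541 against 226 CPM in KO. Fasl, the death ligand, stood at 130 against 34.6 CPM in WT and 187 against 76.6 CPM in KO. Gzmb, the main granule protease of killer cells, stood at 791 against 269 CPM in WT and 2209 against 1167 CPM in KO. The other genes named as highest were Ctla2a, a cathepsin inhibitor, Ifit1, an interferon-induced gene, Glrx, S100a11, Gimap7, the granule gene Nkg7, the galectin gene Lgals1 and the transcriptional regulator Id2, with ratios between 1.59 and 3.32. Not every effector gene reached a 1.5-fold higher summed level in the members. In KO the summed CPM ratio to Gzmk-negative cells was 0.420 for Ccl4, 0.494 for Ifng, 0.496 for Ccl3, 0.0366 for Xcl1 and 1.41 for Prf1. A Ccl4 UMI was nonetheless found in 23 of 37 KO members and 15 of 82 KO Gzmk-negative cells. These cell counts were 17 and 11 for Ifng, 10 and 13 for Ccl3, 17 and 22 for Prf1, and 2 and 9 for Xcl1. Of these genes only Xcl1 was held by a smaller share of members than of Gzmk-negative cells.

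At the other end, Dapl1 had no UMI in any member and stood at 128 CPM in WT and 107 CPM in KO Gzmk-negative cells. Ccr7, the receptor that takes T cells into lymph nodes, stood at 15.6 against 240 CPM in WT and 15.9 against 258 CPM in KO. Il7r, which encodes the IL-7 receptor that keeps resting T cells alive, stood at 276 against 505 CPM in WT and 147 against 437 CPM in KO. Tcf7 itself stood at 130 against 285 CPM in WT and 55.7 against 157 CPM in KO. The remaining genes named as lowest were Satb1 and Klf2, regulators of the naive state, Socs3, a brake on cytokine signalling, Myc, Rgs10, Rapgef6 and Rgcc. In these genes the members sat below the Gzmk-negative cells of the same library, whichever the genotype.

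**Figure D1:**
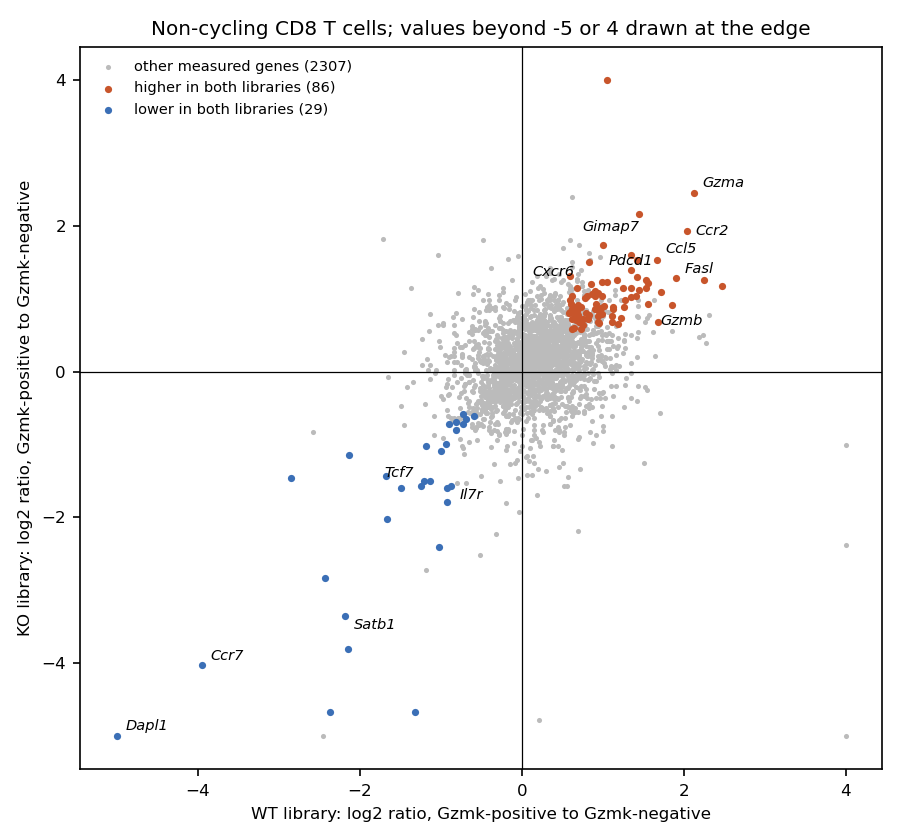
Log2 CPM ratio of Gzmk-positive to Gzmk-negative non-cycling CD8 T cells in the WT library (x axis) and the KO library (y axis), each point 1 of 2422 genes. The 86 genes higher in both libraries lie at the upper right with Gzma, Ccl5 and Fasl, the 29 lower in both at the lower left with Ccr7, Satb1 and Dapl1.

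The targeted gene was lower in the KO library but not absent. Tcf7 (chr11:52252371-52283014, minus strand, GRCm38) had 25 UMIs in 16 of 37 WT members, 130 CPM (84.2 to 192), and 14 UMIs in 9 of 37 KO members, 55.7 CPM (30.5 to 93.5). The KO-to-WT ratio was 0.428 (0.206 to 0.857). The sources used here give neither the exons that the Cre removes nor the end of the transcript that was read, so the remaining UMIs do not tell whether they come from intact or deleted alleles. The same direction was seen in Gzmk-negative cells, with 285 CPM in WT and 157 CPM in KO, and in cycling CD8 T cells, with 60.2 and 17.6 CPM.

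Between KO and WT members, 112 of 2532 measured genes were higher in KO (4.42%) and 117 were lower (4.62%), measured meaning a mean of at least 50 CPM and called meaning a ratio of at least 1.5 with a counting interval that excludes 1. The median log2 ratio over all measured genes was 0.03. Counts for the gene lists below are to be set beside these shares of 4.42% and 4.62%. Cxcr6, Gzma, Gzmb, Plac8, Tnfrsf9 and Stat3 were among the genes higher in KO, and Tcf7, Il7r, Cxcr3, S1pr1, Fos and Xcl1 among those lower. Without the deepest WT cell and the Lyz2-bearing cell, an alternative chosen after seeing the data, the counts were 154 higher and 136 lower. Of these, 86 and 95 were also called with all cells.

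**Figure D2:**
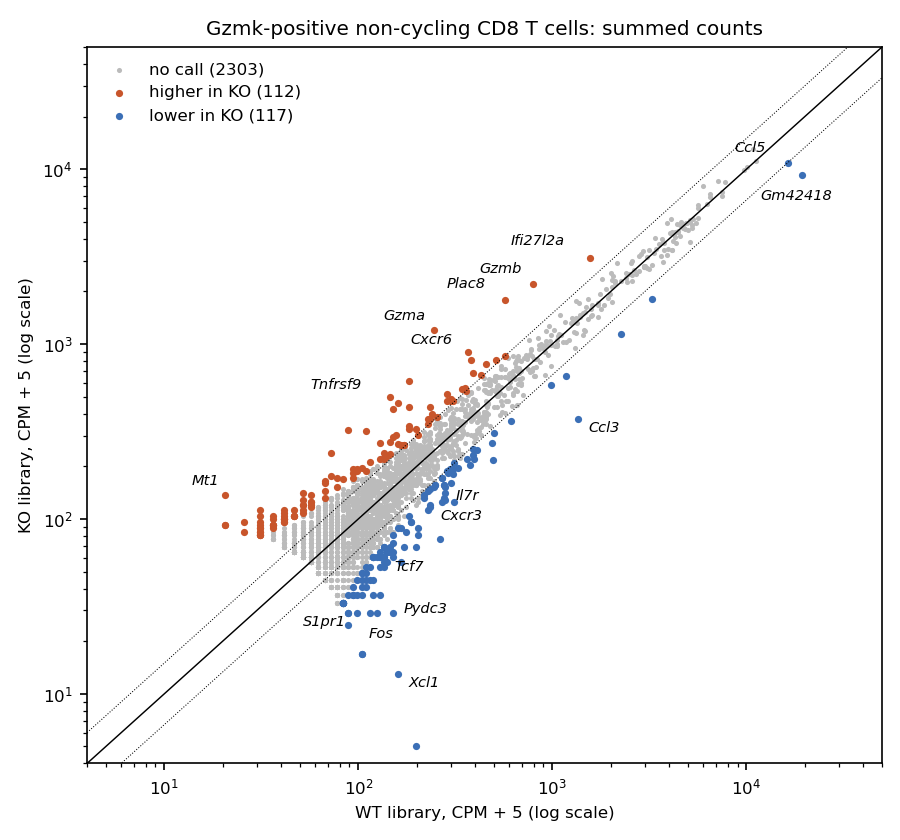
Summed level of each measured gene in the 37 WT members (x axis) and the 37 KO members (y axis) in CPM plus 5, on log scales. The solid line marks equal levels and the dotted lines a ratio of 1.5 of the plotted values. The 112 higher genes lie to the upper left and the 117 lower genes to the lower right, and the lowest point is Lyz2, whose 37 WT UMIs all lie in 1 cell.

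Cxcr6 (chr9:123806475-123811760, plus strand) had 70 UMIs in 19 of 37 WT members and 225 UMIs in 34 of 37 KO members. Its level was 364 CPM (284 to 460) in WT and 896 CPM (782 to 1021) in KO, a ratio of 2.46 (1.87 to 3.26). Per cell, the median was 1.24 UMIs per 10000 in WT and 7.70 in KO, with highest values of 12.3 and 33.7, so the libraries overlapped but the KO median lay well above the WT one. At an equal depth of 2000 UMIs, 34.5% of WT and 78.2% of KO members were expected to hold a Cxcr6 UMI, while a Cxcr6 UMI was found in 0 of 142 WT and 0 of 156 KO type 1 dendritic cells. In Gzmk-negative cells the levels were 201 and 391 CPM, and in cycling CD8 T cells 464 and 443 CPM with a ratio of 0.955 (0.823 to 1.11). Whether the ratio differs between these classes was not tested.

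The promoters of Cxcr6 and of Tnfrsf9, the co-stimulatory receptor gene described further on, are shown because they were the only ones with the letters CTTTGA, the core of the TCF and LEF motif, among 24 matched genes of the 30 looked up. The windows are RefSeq sequence of GRCm38.p6 from 250 bases before to 50 after the annotated start, printed 5′ to 3′ along the gene, with the match in capitals on either strand, so that TCAAAG is the same word read on the other strand.
Cxcr6, chr9:123806227-123806526, plus strand: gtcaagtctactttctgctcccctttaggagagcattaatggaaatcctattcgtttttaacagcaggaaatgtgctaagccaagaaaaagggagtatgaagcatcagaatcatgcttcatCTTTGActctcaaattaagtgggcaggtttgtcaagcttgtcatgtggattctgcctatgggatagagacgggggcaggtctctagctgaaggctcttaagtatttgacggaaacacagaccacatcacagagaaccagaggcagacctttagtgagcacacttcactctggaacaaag
Tnfrsf9, chr4:150919905-150920204, plus strand: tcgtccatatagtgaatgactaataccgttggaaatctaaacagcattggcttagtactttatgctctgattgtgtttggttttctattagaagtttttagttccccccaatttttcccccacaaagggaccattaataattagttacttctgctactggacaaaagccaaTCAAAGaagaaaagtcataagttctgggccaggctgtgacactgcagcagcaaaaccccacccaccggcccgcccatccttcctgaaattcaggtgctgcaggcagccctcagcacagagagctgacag
The match begins 129 bases before the start of the window shown for Cxcr6 and 79 bases before that for Tnfrsf9, start meaning the annotated transcript start. Tnfrsf9 has another annotated start, and its window (chr4:150927749-150928048) held no match. The word occurs in 16.0% of all 32851 windows of the table, and it was found in 2 of 12 matched genes that were higher in KO and in 0 of 12 that were lower. These matches describe letters and not binding sites.

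The homing, residency and chemokine receptor list held 2 higher (13.3%) and 6 lower (40%) genes among 15 measured of 22 listed. Its median log2 ratio was -0.64. Beside Cxcr6, Rgs1, a regulator of chemokine receptor signalling, was higher, at 192 CPM in WT and 322 CPM in KO. Cxcr3, the receptor of interferon-induced chemokines, was lower, at 229 CPM in 23 WT cells and 111 CPM in 16 KO cells, a ratio of 0.487 (0.292 to 0.80). When each cell counted alike that ratio was 0.78, no longer past 1.5-fold. Emb, which encodes embigin, was at 265 and 119 CPM, and Itgb7, the gut-homing integrin subunit, at 229 and 115 CPM. Itga4 and Itgb1, which pair as an integrin, and Cd69, a retention receptor, were the other lower members. Rgs1, Itga4, Itgb1 and Cd69 fall outside the naming rule and were named after their values were seen.

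Granule genes made up most of the effector genes higher in KO members. Gzmb (chr14:56258838-56262260, minus strand) had 152 UMIs in 19 WT cells, 791 CPM (670 to 927), and 555 UMIs in 31 KO cells, 2209 CPM (2029 to 2401). The ratio was 2.79 (2.33 to 3.37), and the share of cells at 2000 UMIs was 46.7% in WT and 75.2% in KO. Gzma, a tryptase-like granzyme encoded beside Gzmk, had 46 UMIs in 8 WT cells, 239 CPM, and 301 UMIs in 15 KO cells, 1198 CPM. Its ratio was 5.01 (3.66 to 6.99), but 160 of the KO UMIs came from 1 cell, and without the top cell of each library the ratio was 3.51. Most members held no Gzma UMI in either library, the share at 2000 UMIs being 18.9% in WT and 34.4% in KO. Prf1, which encodes the pore-forming perforin, was at 297 and 478 CPM, a ratio of 1.61 (1.17 to 2.25) that became 4.48 without the deepest and the Lyz2-bearing WT cells.

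Of the cytotoxic and effector list, 17 of 29 genes were measured, 5 were higher (29.4%) and 3 lower (17.6%), and the median log2 ratio was 0.44. The other higher members were protease inhibitors. Serpinb6b was at 104 and 314 CPM, a ratio of 3.02 (1.83 to 5.21), and it turned to a log2 ratio of -0.32 when the whole gate was applied after thinning cells to 2000 UMIs. Serpinb9, the inhibitor of granzyme B, was at 62.4 and 159 CPM and is named after its value was seen. In the same list Ifng, at 114 CPM in 6 WT cells and 131 CPM in 17 KO cells, Eomes, at 72.8 and 47.8 CPM, and Nkg7, at 2143 and 2902 CPM, did not meet the call rule.

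The lower members were chemokine genes. Ccl5 was at 16397 CPM (15830 to 16980) in WT and 10878 CPM (10474 to 11294) in KO, a ratio of 0.663 (0.630 to 0.699). Weighing cells alike gave 0.79 and leaving out the top cell of each library 0.70, both short of 1.5-fold. Ccl5 was thus higher in Gzmk-positive than in Gzmk-negative cells of each library, and lower in KO than in WT members. Xcl1, a ligand of the dendritic cell receptor XCR1, had 30 UMIs in 3 WT cells and 2 UMIs in 2 KO cells, a ratio of 0.051 (0.00591 to 0.201). Ccl3 was at 1358 CPM in WT and 366 CPM in KO, but without the 2 WT cells named above it was at 119 and 366 CPM, a ratio of 3.07 in the other direction. Ccl4, a chemokine closely related to Ccl3, was at 588 and 832 CPM, a ratio of 1.42 that became 4.57 without those cells.

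In Gzmk-negative cells 3 of these effector cytokines had other values. Ccl4 stood at 206 CPM in WT and 1981 CPM in KO Gzmk-negative cells, so that the ratio of Gzmk-positive to Gzmk-negative cells was 2.86 in WT and 0.420 in KO. Ifng stood at 52.9 and 266 CPM there, with such ratios of 2.16 and 0.494. Xcl1 stood at 134 and 218 CPM there, against 156 and 7.96 CPM in the members. In summed CPM all 3 genes lay below the Gzmk-negative level in KO members. In WT members Ccl4 and Ifng lay above it, while the Xcl1 ratio was 1.16 (0.728 to 1.81). Few KO Gzmk-negative cells held these UMIs: 15 of 82 for Ccl4, 11 for Ifng and 9 for Xcl1. Of 37 KO members, 23 held a UMI of Ccl4, 17 of Ifng and 2 of Xcl1. Without the deepest and the Lyz2-bearing WT cells, WT members stood at 182 CPM of Ccl4. Whether the libraries differ in this respect was not tested.

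**Figure D3:**
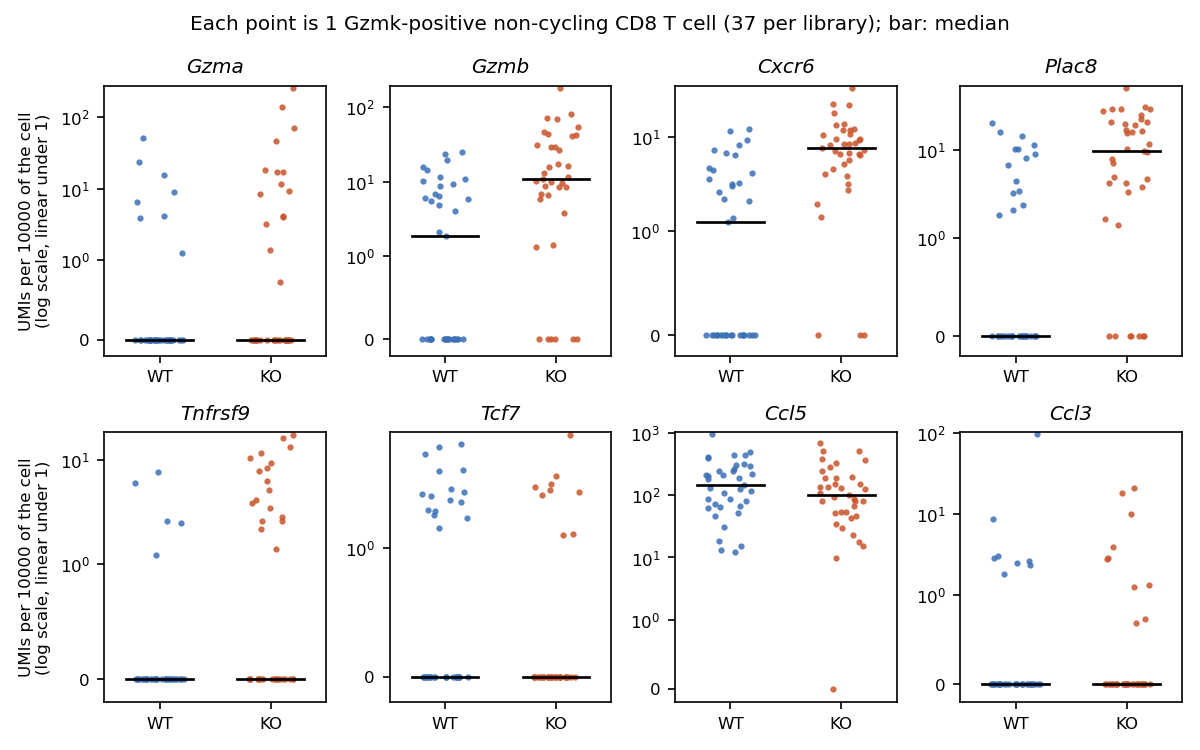
UMIs of 8 genes per 10000 UMIs of the cell, each point 1 of the 37 members of a library and each bar the median, on an axis that is logarithmic above 1 and linear below it. Cxcr6, Gzmb and Plac8 have KO medians of 7.70, 10.7 and 9.82 against WT medians of 1.24, 1.86 and 0, and 1 WT cell alone reaches 97.0 for Ccl3.

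Tnfrsf9 (chr4:150914562-150946102, plus strand), which encodes the co-stimulatory receptor 4-1BB of activated T cells, had 27 UMIs in 5 WT cells and 124 UMIs in 18 KO cells. Its level was 140 CPM (92.6 to 204) in WT and 494 CPM (411 to 589) in KO, a ratio of 3.51 (2.30 to 5.54). The deepest WT cell held 15 of the 27 WT UMIs, and without it and the Lyz2-bearing cell the ratio was 7.15. At 2000 UMIs, 8.0% of WT and 32.3% of KO members were expected to hold a UMI. Of the co-stimulatory receptor list, 11 of 12 genes were measured, 4 were higher and 0 lower, and the median log2 ratio was 0.43. The others were fellow members of the tumor necrosis factor receptor family: Tnfrsf4, encoding OX40, at 46.8 and 123 CPM, Tnfrsf1b at 46.8 and 103 CPM, and Tnfrsf18, encoding GITR, at 166 and 259 CPM, the last named after its value was seen. Without the 2 WT cells the list had 2 higher and 1 lower genes and a median of 0.16, with Tnfrsf9 and Tnfrsf4 still called and Cd2 now lower.

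Cd28, the receptor that the study's title names, was at 161 CPM in 18 WT cells and 139 CPM in 16 KO cells, a ratio of 0.864 (0.517 to 1.45). A difference within these bounds was not detectable at this depth. Icos, its relative, was at 93.6 and 95.5 CPM.

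The inhibitory receptor and exhaustion list had 3 higher and 1 lower genes among 13 measured of 21, with a median log2 ratio of 0.58. Lag3, an inhibitory receptor that binds MHC class II, was at 151 and 299 CPM, a ratio of 1.98 (1.27 to 3.15). Nr4a2, a nuclear receptor gene induced by antigen receptor signals, was at 41.6 and 107 CPM, and Rgs16 at 78.0 and 163 CPM, with ratios of 2.58 and 2.09 that became 4.28 and 4.34 without the 2 WT cells. Cd6, an adhesion receptor that tunes T cell activation, was the lower member at 302 and 175 CPM. Pdcd1 was at 484 CPM in 13 WT cells and 541 CPM in 21 KO cells, a ratio of 1.12 (0.853 to 1.47). Tox, a driver of the exhausted state, was at 114 and 187 CPM with a ratio of 1.63 (0.966 to 2.85), and Havcr2, encoding TIM-3, at 67.6 and 115 CPM with a ratio of 1.71 (0.860 to 3.58). Neither met the call rule with all cells. Without the top cell of each library both did, at ratios of 1.98 and 3.27. Without the 2 WT cells Havcr2 did, at 3.68, and Tox did not, at 1.66 (0.944 to 3.03), and with cells weighed alike Havcr2 had a ratio of 3.09 but a mean too low to be measured. Pdcd1 and Tox were found together in 5 of 37 WT and 15 of 37 KO cells, at median depths of 7816 and 8382 UMIs for the cells that held both.

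**Figure D4:**
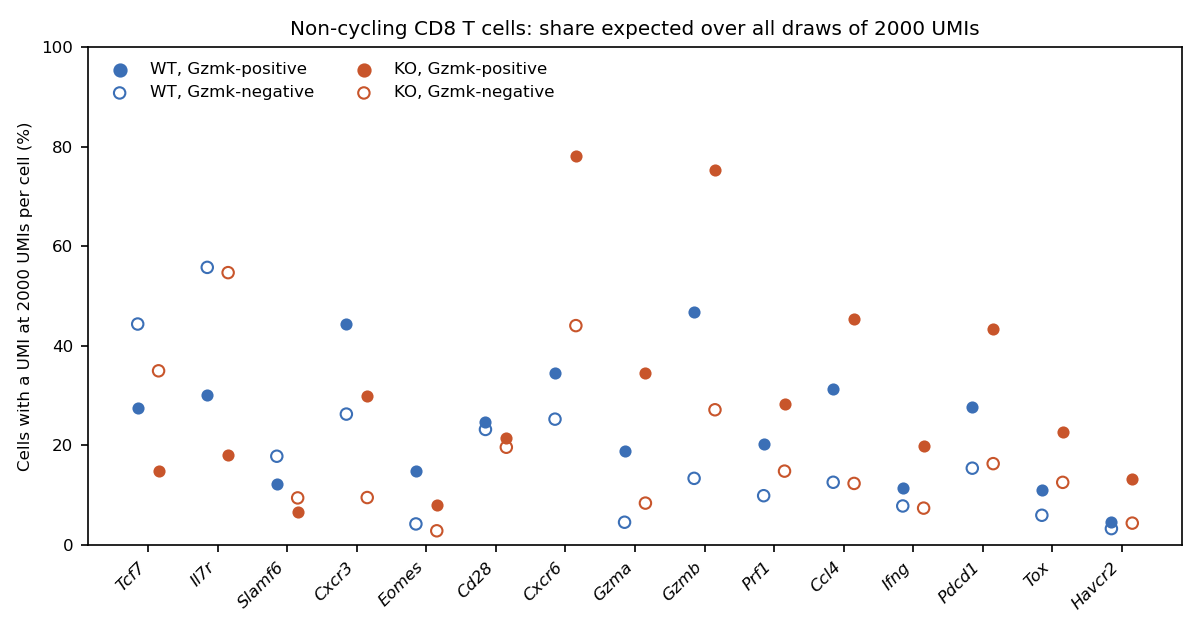
Share of cells expected to hold a UMI of each gene at 2000 UMIs per cell (y axis, percent) in Gzmk-positive cells (filled, 34 WT and 36 KO) and Gzmk-negative cells (open, 90 WT and 78 KO). The KO members stand highest for Cxcr6 at 78.2% and Gzmb at 75.2%, and Tcf7 is lower in members than in Gzmk-negative cells of either library.

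Of the naive and memory list, 9 of 20 genes were measured, 0 were higher and 5 lower, and the median log2 ratio was -0.90, beside -0.09 for the same list in Gzmk-negative cells and -1.22 in cycling CD8 T cells. Il7r was at 276 CPM in 16 WT cells and 147 CPM in 11 KO cells, a ratio of 0.534 (0.341 to 0.828), which was 0.94 when each cell counted alike. Klf2, which drives the exit gene S1pr1, was at 297 and 155 CPM, a ratio of 0.523 that was 0.77 with cells weighed alike. S1pr1, the receptor for exit from tissue, was at 109 CPM in 9 WT cells and 23.9 CPM in 5 KO cells, a ratio of 0.219 (0.0722 to 0.560). Lef1, a gene of the same TCF and LEF family as Tcf7, was at 98.8 and 35.8 CPM. Slamf6, a surface marker of stem-like cells, was at 52.0 and 23.9 CPM in 9 and 6 cells and did not meet the call rule. Ccr7, Dapl1 and Satb1 were too low in members of either library to be measured.

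Of the immediate early and antigen receptor response list, 17 of 25 genes were measured, 0 were higher and 9 lower (52.9%). The median log2 ratio was -0.69, beside -0.35 in Gzmk-negative and -0.16 in cycling CD8 T cells. Fos, a subunit of the AP-1 factor, was at 120 CPM in 15 WT cells and 23.9 CPM in 3 KO cells, a ratio of 0.200 (0.0665 to 0.504). Zfp36l1, which speeds the decay of messenger RNA, was at 260 and 71.6 CPM, a ratio of 0.275 (0.151 to 0.480). Ier5 was at 192 CPM in 22 cells and 63.7 CPM in 10 cells. Jun, the partner of Fos, was at 93.6 and 23.9 CPM, a ratio of 0.255 that was 0.317 (0.0977 to 0.913) without the 2 WT cells, where its mean fell under the 50 CPM limit. The other 5 lower members, named after their values were seen, were Btg1, Btg2, Junb, Nfkbia and Zfp36.

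The cytokine receptor and signalling list had 3 higher and 1 lower genes among 15 measured of 24, with a median log2 ratio of 0.11. Stat3, the transcription factor downstream of IL-6, IL-10 and IL-21 receptors, was at 156 CPM in 16 WT cells and 458 CPM in 24 KO cells, a ratio of 2.93 (1.95 to 4.54). In Gzmk-negative cells Stat3 was at 161 and 153 CPM. Il2rb, the shared receptor chain of IL-2 and IL-15, was at 385 and 681 CPM, a ratio of 1.77 that was 1.26 with cells weighed alike. Il7r was the lower member. The killer cell lectin-like receptor list had 4 measured genes of 13, with 0 higher and 0 lower, and Klrd1 at 619 and 657 CPM and Klrc1 at 406 and 306 CPM form the inhibitory pair CD94 and NKG2A.

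Type I interferon genes were found on both sides. Of 26 measured of 31, 2 were higher (7.69%) and 5 lower (19.2%), and the median log2 ratio was -0.09. Ifi27l2a was at 1555 and 3117 CPM, a ratio of 2.0 (1.75 to 2.30), and Bst2, encoding the virus-tethering protein tetherin, at 177 and 430 CPM. Rsad2, encoding the antiviral enzyme viperin, was at 161 CPM in 4 WT cells and 51.7 CPM in 2 KO cells. Without the top cell of each library its ratio was 0.351 (0.0957 to 1.10) and not called. Pydc3 was at 146 and 23.9 CPM. Pydc3 has close relatives in a cluster of the Ifi200 family, so its share of their reads is uncertain. The other lower members, named after their values were seen, were Ifi47, Slfn2 and Slfn5. Cmpk2, which neighbours Rsad2 and is also induced by interferon, was at 98.8 CPM in 7 WT cells and 11.9 CPM in 3 KO cells. Irf8, an interferon regulatory factor gene, was at 67.6 CPM in 3 WT cells and 235 CPM in 15 KO cells, a ratio of 3.47 (1.88 to 6.89) that became 7.49 (3.03 to 23.9) without the 2 WT cells. Ifitm3, at 125 and 31.8 CPM, had 23 of its 24 WT UMIs in the Lyz2-bearing cell and was at 6.27 and 31.8 CPM without the 2 WT cells.

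In the metabolic and chaperone lists no gene met the rule for a lower call. Glycolysis had 3 higher and 0 lower genes among 12 measured of 16, with a median log2 ratio of 0.37: Pkm, the pyruvate kinase gene, at 562 and 848 CPM, Pgam1 at 234 and 394 CPM, and Pfkp, named after its value was seen, at 104 and 183 CPM. Heat shock genes had 3 higher and 0 lower among 9 measured of 11, with a median of 0.52. Hspd1 and Hspe1, the mitochondrial chaperonin pair, were at 125 and 267 CPM and at 338 and 549 CPM, and Hspe1 was no longer called without the top cell of each library. Hsp90aa1 was at 146 and 418 CPM, with 56 of the 105 KO UMIs in 1 cell, and without the top cell of each library the ratio was 1.65 and not called. Nuclear-encoded oxidative phosphorylation genes had 4 higher and 0 lower among 78 measured, with a median of 0.19, the 4 being Ndufb8, Atp5g1, Atp5j and Uqcrb. That is 5.13% of the list, near the 4.42% of all measured genes, and 17 of the 78 had a ratio below 1. Ribosomal protein genes had 0 higher and 0 lower among 86 measured, with a median of 0.02.

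Several further lists had 1 or 2 calls each, beside 4.42% higher and 4.62% lower over all measured genes. MHC class I processing had 1 higher gene among 17 (5.88%), the proteasome activator gene Psme2 at 453 and 764 CPM. S phase and mitosis genes outside the rule had 2 higher among 12 (16.7%). These were the nuclear transport gene Ran at 354 and 537 CPM and the chromatin gene Hmgn2 at 156 and 263 CPM. The S100, galectin, annexin and cytoskeleton list had 1 lower gene among 22 (4.55%), Ahnak, and the Gimap list 1 lower among 7 (14.3%), Gimap5. Of the mitochondrially encoded genes, 1 of 13 was called (7.69%), mt-Nd6 at 36.4 and 95.5 CPM. It lies on the opposite strand to most of the others.

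**Figure D5:**
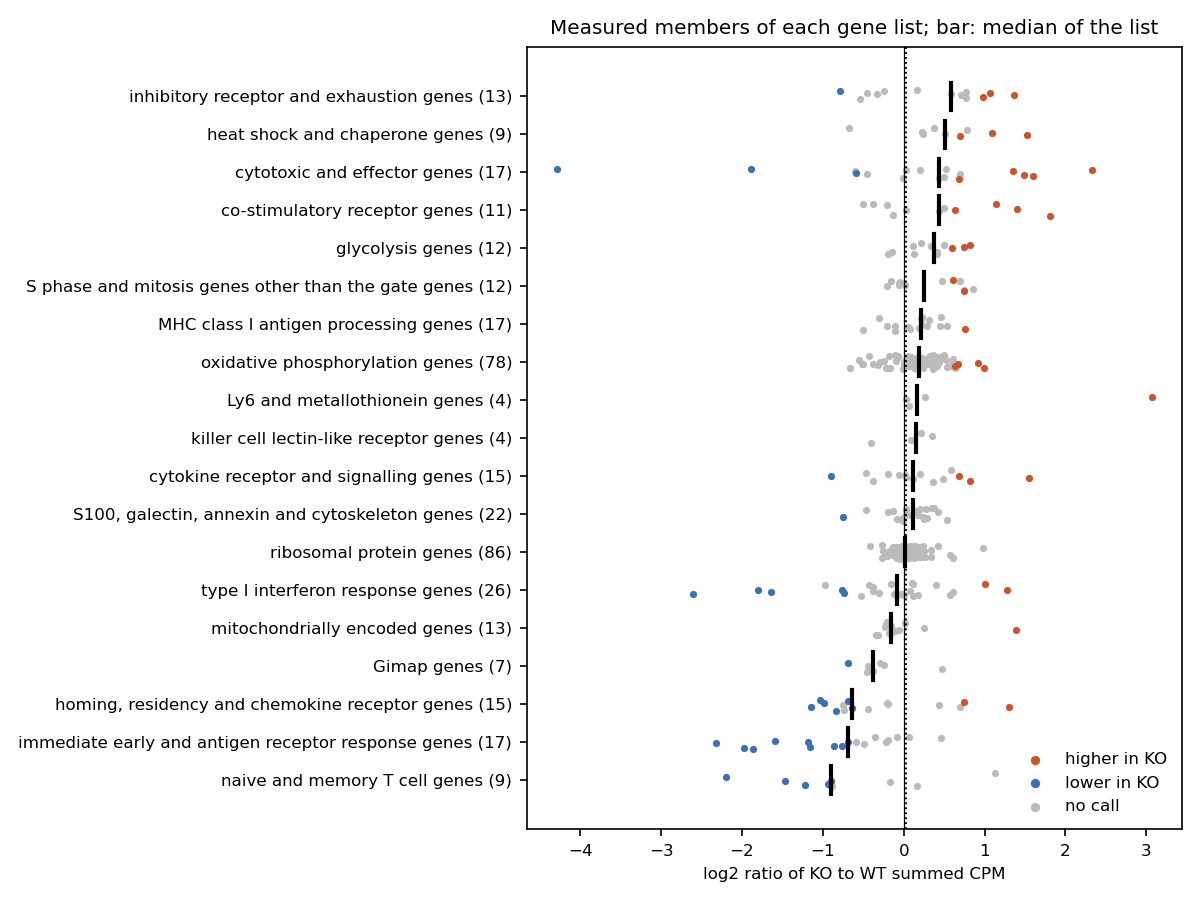
Log2 ratio of KO to WT summed CPM (x axis) for each measured gene of 19 lists (y axis, number measured in brackets), with a bar at the median of each list and a dotted line at the median of all measured genes. Naive and memory genes have the lowest median at -0.90 and the inhibitory receptor list the highest at 0.58, while ribosomal protein genes centre on 0.02.

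Among the highest and lowest ranked genes outside these lists, Plac8 (chr5:100553725-100572245, minus strand), which encodes a small cysteine-rich protein, was at 567 CPM (466 to 684) in 15 WT cells and 1771 CPM (1610.5 to 1944) in 30 KO cells. The ratio was 3.12 (2.53 to 3.89), and 4.71 without the 2 WT cells. It was higher in KO in Gzmk-negative cells as well, at 376 and 717 CPM. Serpina3g, a protease inhibitor gene in a cluster of near-identical copies whose reads may be split, was at 83.2 CPM in 11 WT cells and 318 CPM in 24 KO cells. Mt1, a metallothionein gene, had 3 UMIs in 1 WT cell and 33 UMIs in 8 KO cells, a ratio of 8.42 (2.64 to 42.9), and Gzmk-negative cells stood at 6.11 and 169 CPM. Spp1, encoding osteopontin, had 34 UMIs in 2 WT cells, 33 of them in the deepest cell, and 154 UMIs in 7 KO cells, and Gzmk-negative KO cells had 0 UMIs of it. Its ratio was 3.47 with all cells and 97.7 (17.3 to 3884) without the 2 WT cells, where WT kept 1 UMI. Some of these genes are also made by the dendritic cells of the libraries, and the part of free RNA in low counts was not tested. Type 1 dendritic cells held a Plac8 UMI in 125 of 142 WT and 145 of 156 KO cells, an Mt1 UMI in 99 and 98, an Spp1 UMI in 43 and 52, and an Irf8 UMI in 139 and 154. Clec2i, a lectin gene, was at 98.8 CPM in 11 WT cells and 11.9 CPM in 3 KO cells.

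Gm42418 and Lars2 were lower in KO members and not in Gzmk-negative cells. Gm42418, annotated as a lincRNA on chromosome 17, was at 19233 and 9222 CPM in members and at 18029 and 21666 CPM in Gzmk-negative cells. Lars2, a mitochondrial leucyl-tRNA synthetase gene, was at 2258 and 1138 CPM in members and at 2104 and 2344 CPM in Gzmk-negative cells. Whether the 2 classes differ in this was not tested. Nor was it tested whether all UMIs counted for Gm42418 and Lars2 come from transcripts of these genes.

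Within the members, detection of single genes overlapped in different ways. Gzmb and Cxcr6 were found together in 11 WT and 28 KO cells, and 10 WT and 0 KO cells had neither. Tcf7 and Cxcr6 were found together in 9 WT and 9 KO cells, while Tcf7 without Cxcr6 was found in 7 WT and 0 KO cells. Gzma and Gzmb were found together in 5 WT and 14 KO cells, and Gzma without Gzmb in 3 and 1. These counts depend on depth, and the median depth of cells with Gzmb and Cxcr6 was 4889 UMIs in WT and 6614 UMIs in KO.

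Members with 2 or more Gzmk UMIs (25 cells in each library) were set beside those with 1 (12 cells in each), as a description, since the rule used Gzmk. Ccl5 was at 12032 CPM with 1 and 19234 CPM with 2 or more in WT, and at 8047 and 12145 CPM in KO. Cxcr6 was at 489 and 283 CPM in WT and at 863 and 910 CPM in KO, so the KO level exceeded the WT level in both groups of cells. Gzmb was at 845 and 755 CPM in WT and at 2189 and 2218 CPM in KO. Gzma was at 251 and 232 CPM in WT and at 322 and 1590 CPM in KO. Of the 276 Gzma UMIs of KO cells with 2 or more, 160 lay in 1 cell. The deepest WT cell had 1 Gzmk UMI and gave 24734 of the 75714 UMIs of its group. It held 57 of the 64 Gzmb, 17 of the 37 Cxcr6 and 46 of the 911 Ccl5 UMIs there, and 0 of the 6 Tcf7 UMIs. Tcf7 was at 79.2 and 163 CPM in WT and at 116 and 28.8 CPM in KO. Among cells with a single Gzmk UMI it rested on 6 UMIs in WT (29.1 to 172 CPM) and 9 in KO (53.0 to 220 CPM). Of these 9, 5 lay in 1 cell, and the intervals overlap, so no direction can be read there.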

How the data were processed

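The data are droplet single-cell RNA profiles of sorted tumor immune cells, 1 library per group. The deposited matrices hold raw UMI counts, whole numbers for 27998 genes, per the file headers and the values. The submitters' processing notes name Cell Ranger 1.3 and mm10, while the matrix header names software 3.0.2, and the sources used here do not give the annotation release. Gene positions come from GENCODE M21 on GRCm38, with 27722 gene IDs matched.

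The gate is as given in the report. For each library, the counts of all cells of a class were added up and divided by the class total to give CPM with exact Poisson intervals, while ratios have exact conditional binomial intervals and shares Clopper-Pearson intervals, all at 95%. They were computed in Python 3.11.15 with numpy 2.4.6, pandas 2.3.3 and scipy 1.17.1, and the scripts were tested on simulated data. PCR and capture are not covered by these intervals. Genes counted as measured had a mean of at least 50 CPM over both libraries, and the 13 gate genes were left out. Type 1 dendritic cells had no Cd3d, Cd3e or Cd3g UMI, the class II genes at 0.5% or more, and at least 2 UMIs of Xcr1 and Clec9a together. A count of 0 allows up to 3 counts. Scrublet (scanpy 1.11.5, expected rate 6%) called 5 of 988 WT and 3 of 1086 KO barcodes and 0 members, and none was removed. For equal depth, the expected share over all draws of 2000 UMIs was used, which left out 3 WT members and 1 KO member. edgeR 4.0.16 in R 4.3.3 gave TMM factors for an alternative scaling only. Figures were drawn with matplotlib 3.10.9.

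Named genes were 16 fixed genes, the 12 highest and 12 lowest in KO against WT and in Gzmk-positive against Gzmk-negative cells, ranked by the interval bound nearest to 1, and 2 to 4 members of each list, of which a few are not reported here. Gate, ribosomal, mitochondrial, antigen receptor, haemoglobin and other-cell-type marker genes were left out of the ranking. The members, lists and rules were chosen with earlier results of these data known. Alternatives changed the cell weighting, scaling, low filter, fold, gate, doublets and cells left out. Those that drop the interval or the 2 WT cells were chosen after seeing the data.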

Additional observations from a re-analysis of the deposited data

How the results depend on the processing

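With 112 genes higher and 117 lower, the counts became 440 and 436 when cells weighed alike with no interval, 321 and 333 with no interval, 43 and 32 with a mean of at least 200 CPM, 176 and 221 with a mean of at least 10 CPM or no filter, 70 and 76 with a fold of 2, and 69 and 49 with the gate applied after thinning to 2000 UMIs, which kept 26 and 21 of the same genes. Leaving out the deepest 10% of cells made 58.9% of calls higher, against 48.9%. The Gzmk-positive share with 2 or more Gzmk UMIs was 18.5% in WT and 21% in KO, and after thinning 20.7% in KO. The gate applied after thinning held 29 WT and 29 KO members. With the main gate, the share expected at 2000 UMIs per cell was 19.4% in WT and 20.3% in KO.

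Of 58 named genes called, 54 kept their direction in every alternative that gave a value. Serpinb6b turned to a log2 ratio of -0.32 and Nr4a2 came to 0 with the thinned gate. Ccl3 turned to 3.25 with 2 or more Gzmk UMIs, 1.22 with the thinned gate, 2.60 with more cycling genes left out, 0.95 without the top cells, 1.72 without the deepest 10%, 1.55 without the deepest WT cell and 1.62 without both WT cells. Ifitm3 turned to 1.92 without the top cells, 2.10 without the deepest 10%, 2.55 without the Lyz2-bearing cell and 2.34 without both. The TMM, median-of-ratios and other scalings moved all log2 ratios by 0.02, -0.03 and -0.0015. Calls were lost for 5 of the 58 without both WT cells (Ccl3, Ifitm3, Tnfrsf1b, Jun, Uqcrb), for 12 without the top cells (Ccl3, Ccl5, Clec2i, Cmpk2, Hsp90aa1, Hspe1, Ifitm3, Jun, Mt1, Rsad2, Tnfrsf1b, Xcl1) and for 14 with cells weighed alike (Ccl5, Cd6, Cxcr3, Gimap5, Hspe1, Il2rb, Il7r, Itgb7, Klf2, Mt1, Nr4a2, Pkm, Tnfrsf4, Uqcrb), some because the mean fell under 50 CPM. For the turns not tied to a cell the cause was not tested. With 37 cells per library, genes under 50 CPM could not be followed. No paired analysis was possible because each group has 1 library.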
